A study of Mus musculus with 13 samples.

Results

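Tumors and normal colorectal tissue were compared here on the arrays that had a high level of Hoxb13, a homeobox gene of the hindgut. The 10 members were chosen by their Hoxb13 signal from the 13 arrays of the series: an array was kept if its brightest Hoxb13 probe (chr11:96057854-96057913 on mm9) was at or above the array's own 75th percentile. They were 7 tumors, namely control tumors 2, 3, 4, 6 and 7 and microRNA tumors 1 and 2, and 3 samples of normal tissue, namely control normals 1 and 2 and microRNA normal 1. All groups, controls included, came from mice called CPC-Apc, with the genotype CDX2P-NLS Cre;Apc+/loxP. A CDX2 promoter drives the Cre recombinase in these mice, and Cre removes 1 of the Apc alleles in cells where the promoter is active. Mice of the microRNA groups received miR-200c, miR-302 (a to d) and miR-369 (3p and 5p), 25 µg of each, through the tail vein on a super carbonate apatite carrier. Injections started at 8 weeks of age and were given 24 times, at 3 a week, and the protocol in the labels gives a negative control microRNA as the comparison. RNA of each sample was hybridised to a 1-colour array, and the labels do not say which mouse gave which sample or from which stretch of the colon it was cut. Replicates were therefore taken as separate samples, and p-values measure the spread between these samples. A number in the array file names was shared by microRNA normal 1 and microRNA tumor 1, by control normal 2 and control tumor 3, and by control tumors 4, 6 and 7. The labels do not say what it stands for. If it names the mouse, tumors and normals share mice and 3 of the 7 tumors come from 1 mouse, and the samples are then not independent. With this number as a random block (correlation 0.507) 9431 genes were called, against 8893 without it.

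Hoxb13 is the last gene of the Hoxb cluster, and its protein is a transcription factor that marks the caudal end of the gut, from the distal colon to the rectum. Apc is part of the complex that destroys beta-catenin. When both alleles are lost, beta-catenin accumulates and acts with TCF/LEF factors on Wnt target genes, several of which encode secreted or membrane inhibitors that feed back on the pathway. Colon tumors of this kind are known for crypt-like gene expression, fewer differentiated absorptive and secretory cells, and a stroma with inflammatory cells and matrix-degrading enzymes.

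Levels below are log2 processed signals minus the log2 of the array's 75th percentile, so a level of 0 is the 75th percentile. Hoxb13 was at 6.56 in control normal 1, 6.13 in control normal 2 and 5.86 in microRNA normal 1. The lowest of the 7 tumors was at 6.42, the median tumor at 6.60 and the highest at 6.84. The lowest array kept was microRNA normal 1, well above the threshold of 0, and the highest left out was microRNA normal 2 at -0.31. Control tumors 1 and 5, also left out, were at -1.38 and -4.35. These values chose the arrays and carry no test.

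Other position genes did not follow Hoxb13 in all arrays. Hoxa13, its counterpart in the Hoxa cluster, was at 0.34 to 1.28 in the 3 normals and at -0.66 to 0.94 in the 7 tumors. Hoxd13 was at 1.75 in control normal 1, 0.93 in control normal 2 and -0.47 in microRNA normal 1, while control tumor 4 was at -6.04 and the other tumors at -2.89 to 3.33. The arrays were matched on Hoxb13 alone, and their position along the colon was not measured in another way.

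**Figure D1:**
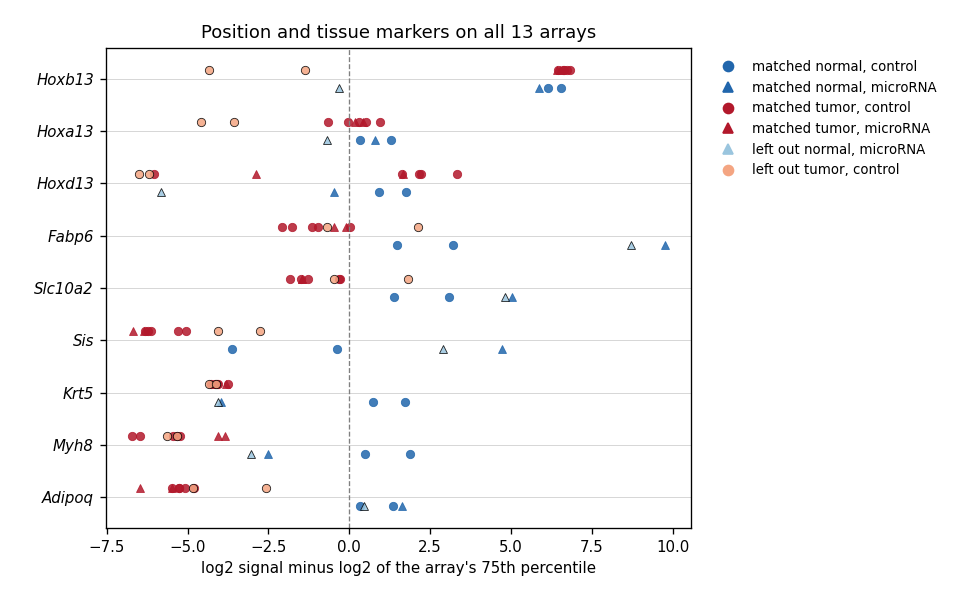
Position and tissue markers on all 13 arrays, with the level (log2 signal minus log2 of the array's 75th percentile) on the x axis and a point per array, by tissue, treatment and whether the array was kept. Hoxb13 is at 5.86 to 6.84 in the 10 arrays kept, and Fabp6 is at 9.75 in microRNA normal 1 and at 1.48 and 3.22 in control normals 1 and 2.

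The 3 normals also differed from each other in tissue content. MicroRNA normal 1 was high in small intestine genes: Fabp6, the ileal bile acid binding protein, was at 9.75 there against 1.48 and 3.22 in control normals 1 and 2. Sis, the brush border enzyme sucrase-isomaltase, was at 4.73 there against -3.63 and -0.38. Over the 9 Paneth cell genes tested, the mean level was 6.16 in microRNA normal 1, and 0.39 and 1.43 in control normals 1 and 2. MicroRNA normal 2, left out of the set, was also high in this mean, at 5.04. Over small intestine genes the mean was 2.98 and 2.13 in microRNA normals 1 and 2. It was -1.61 and -0.59 in control normals 1 and 2. Both microRNA normals were thus above both control normals, and the part of treatment in this was not tested. Control normals 1 and 2 instead had squamous and skeletal muscle markers. Krt5, a basal keratin of stratified epithelium, was at 1.72 and 0.73 in them and at -3.98 in microRNA normal 1, and the skeletal myosin Myh8 was at 0.50 and 1.89 against -2.52. In mean level all 3 normals were above every tumor for fat and for smooth muscle markers. They were well above for fat, as described further on. For smooth muscle, microRNA normal 1 was at 3.53, near control tumor 2 at 3.00. The X-inactivation RNA Xist was at 0.68 in control normal 2 and 2.18 in control tumor 3 and at -5.59 or lower in the other 8 arrays of the set. The arrays with Xist signal are thus the control normal and control tumor that share a number in the file names. Whether they come from the same mouse was not tested.

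The arrays also differed by slide and by brightness. All 3 normals lay on slide 2 with control tumor 3 and microRNA tumor 1, and the other 5 tumors lay on slide 1. The 75th percentile of the signal was 185 to 272 in the normals and 372 to 644 in the tumors, so brightness and tissue cannot be told apart. Counts on slide 2 alone, 2 tumors against 3 normals, are therefore given for each gene list below, in brackets where they follow the list's own counts in the same order. In bulk tissue, fewer cells of a type and less RNA per cell cannot be told apart.

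The first question was how the tumors differed from the normal tissue over the whole array. Of 25463 genes tested with limma, in a model of tissue and treatment, 8893 passed an adjusted p of 0.05, or 34.9% (called genes). They were 3588 genes higher in tumors (14.1%) and 5305 lower (20.8%). The levels of the 7 tumors and the 3 normals did not overlap for 8398 genes (33.0%), with every tumor above every normal for 3445 (13.5%) and below for 4953 (19.5%). The median difference over all genes tested was -0.12 on the log2 scale. Higher genes made up 40.3% of the calls, and 24.1% after normexp background correction, 51.2% after quantile normalization and 95% without any scaling between arrays. It was 27% without the filter on dim probes and 48.5% with the slide as a block. The balance of rises and falls thus moved with the processing, and differences are relative to the scaling used. On slide 2 alone, 4948 of the 25463 genes were called, 2398 higher and 2550 lower, and the slide 2 counts of the lists stand beside these. With the slide as a block 7477 were called, of them 3626 higher. Without control normal 2 the count was 4257 and without control normal 1 it was 5023. Without both, microRNA normal 1 is the only normal. Treatment is in the model, so the tissue difference is then that of the 2 microRNA tumors from this array. Without microRNA normal 1, the tissue difference is that of the control tumors from the control normals.

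**Figure D2:**
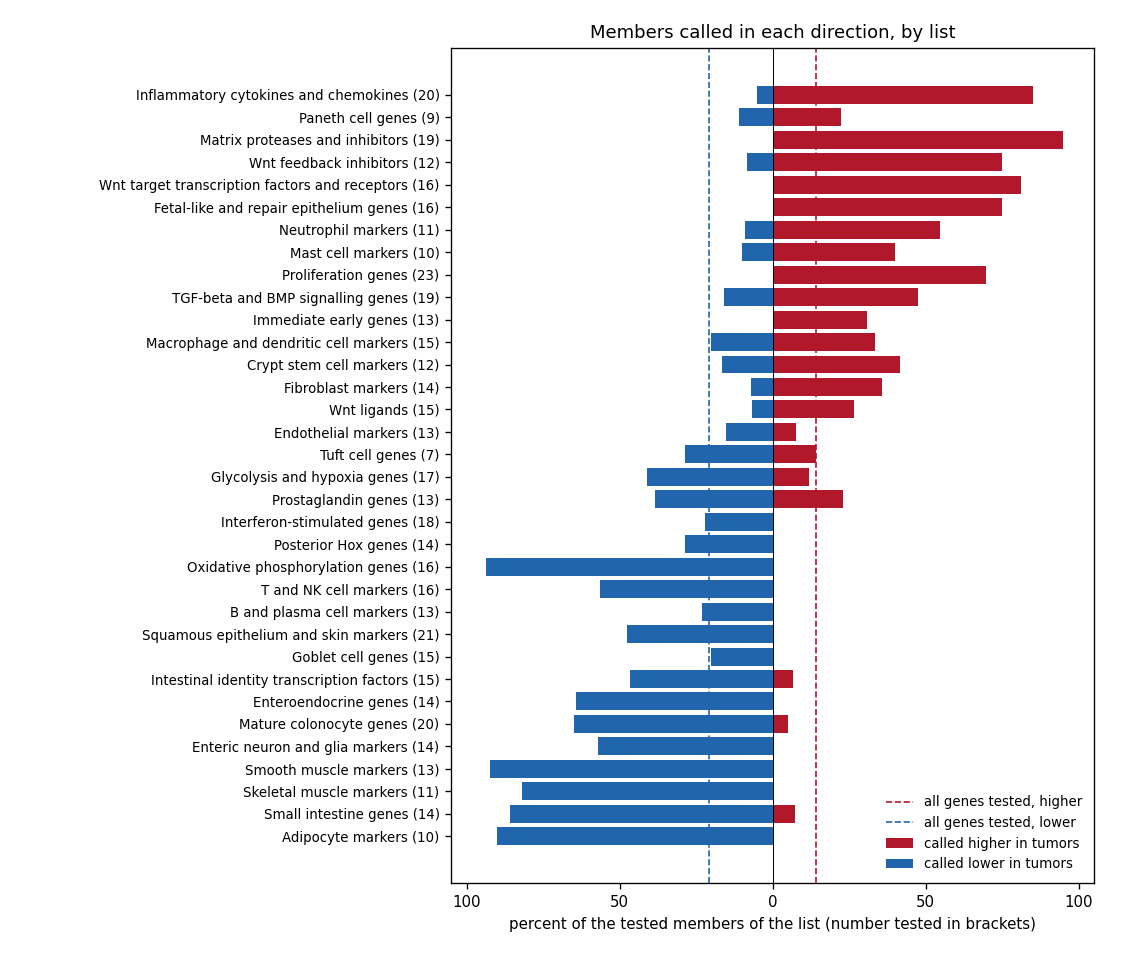
Percent of the tested members of each gene list that were called higher (right) or lower (left) in tumors, with the number tested in brackets. Among the lists with the largest shares, 18 of 19 matrix proteases and inhibitors and 13 of 16 Wnt target genes rose, and 15 of 16 oxidative phosphorylation genes and 12 of 13 smooth muscle markers fell.

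Of the 12 Wnt feedback inhibitors, 9 rose, 1 fell and 2 did not pass. Their median difference was 2.66, against -0.12 over all genes. Wif1, a secreted protein that binds Wnt ligands, was at -1.91 in control normal 1, -1.09 in control normal 2 and 1.17 in microRNA normal 1. The lowest tumor was at 4.35, the median at 5.21 and the highest at 6.05. The groups did not overlap, and Wif1 rose by 5.74 (SE 0.63, adjusted p = 0.000498). Dkk2, which blocks the Lrp co-receptors, was at -3.50, -4.36 and -3.65 in the normals, in the same order, and at -0.09 to 2.39 with a median of 1.74 in the tumors. It rose by 5.25 (SE 0.51, adjusted p = 0.000311), and only 1 normal was well above background. Nkd1, which binds Dishevelled inside the cell, was at 0.48, 0.64 and 1.18 in the normals and at 3.82 to 6.05 in the tumors, a rise of 4.08 (SE 0.44). Axin2, a scaffold of the destruction complex, was at -1.10, -1.33 and -0.72 against 1.18 to 3.07, a rise of 2.99 (SE 0.40, adjusted p = 0.00112). Rnf43 and Znrf3, ubiquitin ligases that remove Wnt receptors, rose by 2.77 and 2.04, and Notum, which removes the lipid from Wnt ligands, rose by 2.55. In each of these genes every tumor was above every normal. Sfrp5, a secreted Wnt-binding protein, went the other way: it was at -1.13, -1.50 and -2.54 in the normals and at -4.35 to -2.87 in the tumors, and fell by 1.99 (SE 0.36, adjusted p = 0.00392). Dkk4 and Kremen1 did not pass, with differences of -0.53 and 0.48. Apc itself differed by 0.05 (SE 0.18, adjusted p = 0.848), and its 2 probes had opposite signs. On slide 2 alone, 9 inhibitors rose and none fell, with Sfrp5 at -1.67. Without both control normals none was called in either direction, with a median of 1.81.

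Of the 16 Wnt target transcription factors, receptors and other targets, 13 rose and none fell, with a median difference of 2.22. Prox1, a homeobox factor, was at -4.47, -3.72 and -4.00 in control normal 1, control normal 2 and microRNA normal 1, and at -0.20 to 2.19 with a median of 0.64 in the tumors. It rose by 5.00 (SE 0.46, adjusted p = 0.000268). Lef1, a partner of beta-catenin on DNA, was at -0.84, -1.18 and -1.03 against 1.10 to 3.92 in the tumors, and rose by 3.46 (SE 0.45). Its relative Tcf7 rose by 2.08. Sox4, Ascl2, the crypt receptor Lgr5 and Myc rose by 2.36, 1.71, 2.39 and 1.46, with every tumor above every normal. Sp5, a zinc finger factor, was at -2.34, -1.34 and 0.13 in the normals and at 1.49 to 4.62 in the tumors, and rose by 4.08 (SE 0.74, adjusted p = 0.00385). Ccnd1, which encodes cyclin D1, rose by 0.79 (SE 0.18), and on slide 2 alone its difference was 0.76 with an adjusted p of 0.0555. Not all targets moved: Ephb2, Ephb3 and Cd44 did not pass, and Ephb2 was at -0.55 to -0.42 in the normals and -0.71 to -0.23 in the tumors. There were 12 rises among the 16 on slide 2 alone.

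TCF/LEF factors are known to bind short A/T-rich letters, and the windows of this list were searched for CTTTGAT and CTTTGAA on both strands. The windows, from RefSeq on GRCm38.p6, run from 250 bases before to 50 bases after a gene's start. The letters were present in 3 of the 11 list members that had a window, Sp5, Tnfrsf19 and Mmp7, and in 9.88% of all 27025 genes with one. The stretches before the start of Sp5 (chr2:70474759-70474885, plus strand) and of Tnfrsf19, a TNF receptor family member of crypt cells (chr14:61038123-61038237, minus strand), are shown 5′ to 3′ on the gene's strand because both genes rose. Mmp7 rose too, but its matches lie at the edge of 1 window or after the start, and it is not shown. The match is in capitals:
Sp5: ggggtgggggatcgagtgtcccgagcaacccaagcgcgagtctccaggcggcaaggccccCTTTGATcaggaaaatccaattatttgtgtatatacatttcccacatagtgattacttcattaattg
Tnfrsf19: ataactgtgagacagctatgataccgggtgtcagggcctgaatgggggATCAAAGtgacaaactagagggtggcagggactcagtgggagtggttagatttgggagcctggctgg

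Of the 15 Wnt ligands that passed the filter on dim probes, out of 19 listed, 4 rose and 1 fell (6 and 2 on slide 2 alone), with a median of 0.32 that was -0.40 after normexp correction. Wnt10a (chr1:74850633-74850692 on mm9) was at -2.36 in control normal 1, -3.32 in control normal 2 and -4.56 in microRNA normal 1. The tumors ran from 1.58 to 5.51 with a median of 3.56, so they were far above the normals and also spread over a wider range. The difference was 6.73 (SE 0.63, adjusted p = 0.00027). Wnt6, its neighbour in the family, was at -2.05, -2.55 and -1.98 against 0.76 to 3.92, and rose by 4.28 (SE 0.63). Wnt5a, a ligand that mostly acts without beta-catenin, rose by 1.90 (SE 0.19, adjusted p = 0.000321). Wnt16 rose by 1.65, or at least 2.0-fold since no normal was well above background, and was at -0.09 after normexp correction. Wnt9a fell by 1.03 (SE 0.26, adjusted p = 0.0148) and was not called on slide 2 alone (-0.83), without microRNA normal 1 (-0.97) or without control normal 1 (-0.90).

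**Figure D3:**
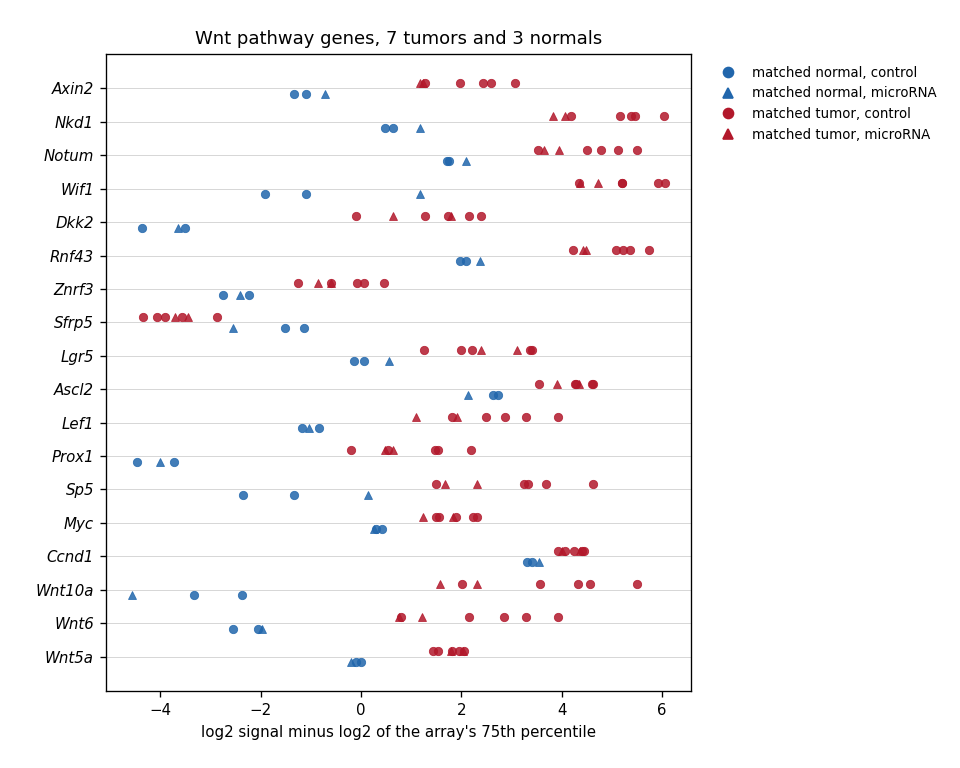
Wnt pathway genes in the 7 tumors and 3 normals, with the level (log2 signal minus log2 of the array's 75th percentile) on the x axis and a point per array. Wif1 tumors sit at 4.35 to 6.05 and normals at -1.91 to 1.17, Wnt10a tumors at 1.58 to 5.51 and normals at -4.56 to -2.36, while Sfrp5 tumors sit at -4.35 to -2.87 and normals at -2.54 to -1.13.

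Crypt stem cell markers moved less evenly than the Wnt targets that some of them belong to. Of 12, 5 rose and 2 fell (6 and 1 on slide 2 alone), with a median of 0.51. Smoc2, a matricellular protein of crypt base cells, was at 3.00, 3.07 and 3.19 in the normals and at 4.62 to 5.79 in the tumors, and rose by 2.24 (SE 0.26, adjusted p = 0.00064). The other 4 that rose, Axin2, Ascl2, Tnfrsf19 and Lgr5, are also on the Wnt lists. Tnfrsf19 rose by 2.56, and by 1.37 when all its probes were averaged. Rgmb, a BMP co-receptor, fell by 0.85, and Msi1, an RNA-binding protein, fell by 1.10, both with adjusted p-values just under 0.05. Neither was called without control normal 1 or control normal 2, and with all its probes averaged Msi1 differed by 0.02. Olfm4 was at -5.40 and -6.22 in control normals 1 and 2 and -0.39 in microRNA normal 1, and its difference of -2.33 did not pass (adjusted p = 0.0539).

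Of 16 genes of fetal-like and repairing epithelium, 12 rose and none fell, with a median of 1.55. Clu, which encodes clusterin, was at 5.23, 4.66 and 5.64 in the normals and at 6.11 to 7.84 in the tumors, and rose by 1.74 (SE 0.38, adjusted p = 0.00834). Spp1, the secreted protein osteopontin, was at -5.78, -6.20 and -4.30 in the normals, none well above background, and at -1.46 to 3.38 in the tumors. Its fitted rise was 6.16 (SE 0.87), or at least 25.0-fold. Ccn1 and Ccn2, which are known targets of the YAP cofactor, rose by 1.73 and 1.33. Ereg, an EGF receptor ligand, rose by 1.71, while its relative Areg differed by -0.22 and did not pass. On slide 2 alone 12 of the 16 rose. Clu was not called without control normal 2, with a difference of 1.55.

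Of 23 proliferation genes tested, 16 rose and none fell, with a median of 0.83. Top2a, the topoisomerase of dividing cells, was at 1.10, 0.81 and 1.03 in control normal 1, control normal 2 and microRNA normal 1, and at 1.68 to 3.08 with a median of 2.50 in the tumors. It rose by 1.44 (SE 0.29, adjusted p = 0.00624). The mitotic kinase Bub1 rose by 1.43 (SE 0.26) and the replication helicase subunit Mcm4 by 1.01 (SE 0.24), which was not called without control normal 2 (1.03). Mki67, which encodes the antigen Ki-67, was at 4.55, 3.89 and 4.13 in the normals and 4.54 to 5.17 in the tumors, with an adjusted p of 0.0416. It was not called on slide 2 alone (0.67, adjusted p = 0.185) or when control normal 2, microRNA normal 1 or any of 4 tumors was left out. Without microRNA normal 1, 9 of the 23 genes were called, and on slide 2 alone 11.

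Of 20 inflammatory cytokines and chemokines tested, 17 rose, 1 fell and 2 did not pass. Their median difference was 3.29, and 0.54 after normexp correction. For 9 of them no normal was well above background, and with those set to their lower bounds the median was 1.96. Il1b, a cytokine of activated myeloid cells, was at -1.86 in control normal 1, -2.24 in control normal 2 and -1.74 in microRNA normal 1, and at 1.66 to 2.74 with a median of 1.89 in the tumors. It rose by 4.05 (SE 0.26, adjusted p = 4.83e-05), and both groups were tight. Cxcl1, a chemokine that attracts neutrophils through the receptor Cxcr2, was at -5.99, -6.28 and -3.98 in the normals and at 0.15 to 1.80 in the tumors, a fitted rise of 6.34 (SE 0.48) and at least 29.0-fold. Cxcl5, of the same family, was at -1.05, -2.75 and -1.03 against 2.81 to 5.90, and rose by 5.87 (SE 0.62, adjusted p = 0.000409). Cxcl2 and Cxcl3 rose by at least 4.0-fold and 3.0-fold. Il11, a cytokine of the Il6 family that acts on epithelium and stroma, was at -4.11, -4.60 and -2.52 against 1.41 to 2.99, and rose by 5.93 (SE 0.47, adjusted p = 0.000148). Il6, Il23a and Il17a rose by at least 5.2-fold, 3.7-fold and 2.7-fold, and Tnf by 3.86 on the log2 scale. Lif, another member of the Il6 family, fell by 1.12 (SE 0.22, adjusted p = 0.00518), and was not called on slide 2 alone (-1.13). Cxcl10 and Il22 did not pass, with differences of 0.84 and 0.00. Of the 20, 15 rose on slide 2 alone.

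The windows of this list were searched on both strands for the NF-kappaB consensus (GGG, a purine, any base, 3 pyrimidines, CC), with overlapping matches counted as 1. It was present in 5 of the 14 members that had a window, Cxcl1, Cxcl2, Cxcl3, Cxcl10 and Il6, and in 6.55% of all 27025 genes with a window. A search for 4 exact words of the same length, made first, found Cxcl1, Cxcl2, Cxcl3 and Cxcl10, and 0.474% of all genes. Not all of these words fall under the consensus, and the consensus match of Cxcl10 holds none of them. Cxcl1, Cxcl2 and Cxcl3 rose, and these 3 lie near each other on chromosome 5 (plus strand), where related genes share sequence. Their stretches are chr5:90891114-90891243 for Cxcl1, chr5:90903742-90903871 for Cxcl2 and chr5:90785968-90786097 for Cxcl3 on GRCm38.p6, shown with the match in capitals because the same 10 letters occur in each:
Cxcl1: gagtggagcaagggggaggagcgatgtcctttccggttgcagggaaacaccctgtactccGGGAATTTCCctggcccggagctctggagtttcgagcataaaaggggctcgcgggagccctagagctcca
Cxcl2: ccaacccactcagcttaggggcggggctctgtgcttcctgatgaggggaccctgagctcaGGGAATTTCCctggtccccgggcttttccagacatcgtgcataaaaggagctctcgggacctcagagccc
Cxcl3: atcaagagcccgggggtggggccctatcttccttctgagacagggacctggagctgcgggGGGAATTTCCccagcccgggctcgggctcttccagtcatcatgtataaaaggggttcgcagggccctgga

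Of 19 matrix proteases and their inhibitors, 18 rose and none fell, with a median of 2.78. Mmp10, or stromelysin 2 (chr9:7510011-7510070 on mm9), had the largest rise of all named genes in the comparison. It was at -5.40 in control normal 1, -3.04 in control normal 2 and -1.55 in microRNA normal 1. The tumors ran from 3.26 to 5.03 with a median of 4.75, and the difference was 7.68 (SE 0.70, adjusted p = 0.000255). The collagenase Mmp13 was at -2.28, -2.38 and -2.36 in the normals and at 2.05 to 4.15 in the tumors, and rose by 5.47 (SE 0.44, adjusted p = 0.000148). The stromelysin Mmp3 rose by 4.79 (SE 0.67), and on slide 2 alone by the same size with an adjusted p of 0.06. Adamts4, a protease that cuts aggrecan, rose by 3.59 with the smallest error of the list (SE 0.19, adjusted p = 1.72e-05). The plasminogen system moved with them: the receptor Plaur rose by 2.13 and the activator Plau by 2.11. The protease inhibitor Timp1 was at -1.33, -0.74 and -0.86 against 2.04 to 3.46, and rose by 3.63 (SE 0.31), whereas Timp3 differed by 0.29 and did not pass. On slide 2 alone 15 of the 19 rose.

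The AP-1 letters TGAGTCA and their reverse complement TGACTCA were present in the windows of 6 of the 13 members of this list that had one: Mmp3, Mmp7, Mmp10, Mmp12, Mmp13 and Plaur. They were present in 5.95% of all 27025 genes with a window. The Mmp genes lie in a cluster on chromosome 9 (plus strand) and are related in sequence. The stretches of the 3 members with the largest rises among those in the cluster that are on this list alone are chr9:7502219-7502341 for Mmp10, chr9:7272419-7272513 for Mmp13 and chr9:7445716-7445821 for Mmp3 on GRCm38.p6, with the match in capitals:
Mmp10: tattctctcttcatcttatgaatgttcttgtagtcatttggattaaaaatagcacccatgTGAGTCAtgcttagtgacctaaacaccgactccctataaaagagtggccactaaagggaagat
Mmp13: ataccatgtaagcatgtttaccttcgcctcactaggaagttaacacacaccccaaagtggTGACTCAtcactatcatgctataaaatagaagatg
Mmp3: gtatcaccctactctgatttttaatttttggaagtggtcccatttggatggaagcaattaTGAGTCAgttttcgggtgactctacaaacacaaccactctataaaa

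Of 19 TGF-beta and BMP signalling genes, 9 rose and 3 fell (6 and 1 on slide 2 alone), with a median of 0.76. Inhba, which encodes the activin A subunit, was at -2.24 in control normal 1, -2.0 in control normal 2 and -2.92 in microRNA normal 1, and at 2.06 to 3.22 with a median of 2.58 in the tumors. It rose by 5.01 (SE 0.28, adjusted p = 2.35e-05). Inhbb and the activin antagonist Fst rose by 2.65 and 1.85, and Bmp7 by 2.21. Among those that fell were the BMP antagonists Nog, by 1.54, and Chrdl1, by 1.84. Chrdl1 overlapped between the groups and was not called without control normal 1 or control normal 2, and neither of them was called on slide 2 alone.

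Prostaglandin genes were split, with 3 of 13 higher and 5 lower (2 and 4 on slide 2 alone). Ptgs2, the inducible cyclooxygenase, was at -2.30, -2.96 and -2.71 in the normals and at -1.09 to 0.70 in the tumors, and rose by 2.82 (SE 0.38, adjusted p = 0.0011). Hpgd, which degrades prostaglandins, was at 3.44, 3.90 and 3.84 against -1.38 to 1.92, and fell by 3.13 (SE 0.59, adjusted p = 0.0048). The prostaglandin transporter Slco2a1 fell by 1.30, and the synthases Ptgds and Hpgds rose, Ptgds by at least 5.7-fold and Hpgds by 2.28 on the log2 scale. Slco2a1 was not called without microRNA normal 1 (-1.0), nor Hpgds without control normal 1 (1.83).

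Immune cell markers were grouped by cell type. Of 11 neutrophil markers, 6 rose and 1 fell (5 and none on slide 2 alone), with a median of 1.36. The calcium-binding proteins S100a8 and S100a9, abundant in neutrophils, rose by 5.70 (SE 0.58) and 5.19 (SE 0.57). S100a8 was at -1.62, -2.45 and -3.24 in the normals and at 1.05 to 4.52 in the tumors. The chemokine receptor Cxcr2 rose by 2.68, or at least 4.3-fold, but was not called on slide 2 alone (2.71), while Csf3r, Trem1, Ltf and Camp differed by -0.07 to 0.14 and did not pass. Of 10 mast cell markers 4 rose and 1 fell (4 and 1). Hdc, the histamine-forming enzyme, was at -0.67 to 2.25 in the tumors and not well above background in any normal, a rise of at least 25.0-fold.

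Of 15 macrophage and dendritic cell markers, 5 rose and 3 fell (7 and 3 on slide 2 alone). The share that fell was near the 20.8% over all genes, of which 14.1% rose. The receptor Cd14 rose by 1.50 (SE 0.23) and Arg1, the arginase of some macrophages, by 2.94 (SE 0.50). The 3 that fell were genes of antigen presentation by MHC class II: H2-Aa by 2.30, H2-Ab1 by 1.35 and Cd74 by 1.31. H2-Aa was at 3.07, 2.74 and 3.83 in the normals and at 0.33 to 1.73 in the tumors. Of 16 T and NK cell markers none rose and 9 fell (none and 5), with a median of -1.09. Cd3d, a subunit of the T cell receptor complex, was at 0.55, 0.32 and 0.94 in the normals and at -2.35 to -1.15 in the tumors, and fell by 2.21 (SE 0.30, adjusted p = 0.00113). Cd8a was not well above background in any tumor and fell by at least 3.3-fold. Of 13 B and plasma cell markers none rose and 3 fell (1 and none), a share near the 20.8% over all genes. The 3 were Cd79a, Cd79b and Ms4a1, all with overlapping groups, and none of the 3 was called on slide 2 alone, without control normal 1 or without control normal 2.

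Most genes of mature colonocytes fell. Of 20 tested, 13 fell and 1, the sodium channel subunit Scnn1b, rose by 0.88, with a median of -2.05. Car1, a carbonic anhydrase of absorptive cells, was at 7.50 in control normal 1, 9.37 in control normal 2 and 8.80 in microRNA normal 1. The tumors ran from 2.15 to 4.66 with a median of 3.00, and Car1 fell by 5.19 (SE 0.52, adjusted p = 0.000349). The water channel Aqp8 was at 6.90 to 7.50 in the normals and at -1.38 to 5.36 in the tumors, so it fell by 5.31 with a wide spread between tumors (SE 1.23). Slc26a3, a chloride exchanger, fell by 4.97, and Guca2a, which encodes guanylin, by 3.45. Slc51a, a subunit of the basolateral bile acid transporter, was at 0.65, 3.30 and 5.75 in the normals, in the same order, a wide spread. It was not well above background in any tumor and fell by at least 219-fold from the mean of the normals. There were 13 falls among the 20 on slide 2 alone. Aqp8 was not called without control normal 2 (-4.96), nor Scnn1b without microRNA normal 1 (0.85) or control normal 1 (0.61).

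Secretory cells were examined as 3 lists. Of 14 enteroendocrine genes 9 fell and none rose (5 and 1 on slide 2 alone), with a median of -1.82. Sct, which encodes secretin, was at 4.60, 6.22 and 6.00 in the normals and at -0.40 to 0.98 in the tumors, and fell by 5.29 (SE 0.40, adjusted p = 0.000119). The hormones Nts, Sst and Gcg fell by 4.00, 3.62 and 3.08. Sst and Gcg were not called without control normal 1 (-2.97 and -2.87), Gcg also not without control normal 2 (-2.95), and Nts not on slide 2 alone (-2.81). Of 15 goblet cell genes 3 fell and none rose (4 and none), a share near the 20.8% over all genes, with a median of -1.39. The 3 were Retnlb, Ang4 and Clca1, with falls of 3.72, 2.97 and 2.75, and neither Ang4 (-2.86 and -2.37) nor Clca1 (-2.78 and -2.27) was called without control normal 1 or control normal 2. Muc2, the main secreted mucin, was at 7.33 to 7.97 in the normals and at 3.41 to 8.16 in the tumors, which overlapped, and its difference of -1.17 did not pass (adjusted p = 0.327). Of 7 tuft cell genes tested, 1 rose and 2 fell (2 and 1), not far from the shares over all genes, 14.1% higher and 20.8% lower. Avil rose by 3.47 and Trpm5 and Siglecf fell by 2.86 and 1.53, Siglecf without a call on slide 2 alone (-1.11).

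Of 15 intestinal identity transcription factors, 7 fell and 1 rose (8 and none on slide 2 alone). Cdx2, the homeobox factor whose promoter drives Cre in these mice, was at 4.97 in control normal 1, 5.63 in control normal 2 and 5.86 in microRNA normal 1. The tumors ran from -1.02 to 3.12 with a median of 2.01, so every tumor was below every normal, and Cdx2 fell by 3.81 (SE 0.76, adjusted p = 0.00588). In the arrays with low Hoxb13 it was at 5.52 in microRNA normal 2, 5.77 in control tumor 1 and 4.39 in control tumor 5. Hnf4a and Hnf4g, nuclear receptors of enterocytes, fell by 1.58 and 2.00, and the vitamin D receptor gene Vdr by 2.84. Foxa1 rose by 0.63 (SE 0.17), but was not called without control normal 1 (0.56) or control normal 2 (0.66). Of 14 posterior Hox genes tested, 4 fell and none rose (3 and 1), beside 20.8% lower and 14.1% higher over all genes. Without scaling their median turned from -0.55 to 0.54. The 14 and the medians include Hoxb13, which chose the arrays, so its lack of a call says nothing here. Hoxc9 was at -3.30, -3.21 and -2.51 in the normals and not well above background in any tumor, and fell by at least 2.9-fold. Hoxd8, Hoxb8 and Hoxc10 fell by 2.37, 3.33 and 1.91, and Hoxc10 was not called on slide 2 alone (-0.88) or without control normal 1 (-1.45) or control normal 2 (-1.87).

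Most small intestine genes fell with or without microRNA normal 1, by less at the median without it, while the number of Paneth cell genes called changed with that array. Of 14 small intestine genes 12 fell and 1 rose (6 and 1 on slide 2 alone), with a median of -4.08, and without that array 10 fell with a median of -3.05. Fabp2, a fatty acid binding protein of enterocytes, was at 6.84 in control normal 1, 8.30 in control normal 2 and 8.59 in microRNA normal 1, and at -1.19 to 2.93 in the tumors. It fell by 6.46 (SE 0.90, adjusted p = 0.00132), and by 6.69 without microRNA normal 1. Fabp6 fell by 5.60, and by 3.54 without it, and was not called on slide 2 alone (-6.73). The transcription factor Onecut2 was the member that rose: it was at -3.82, -3.54 and -0.58 in the normals and at 2.71 to 4.63 in the tumors, a difference of 6.65 (SE 0.63, adjusted p = 0.000292).

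Of 9 Paneth cell genes tested, 2 rose and 1 fell (2 and 1 on slide 2 alone), with a median of 3.16. Without microRNA normal 1, 7 rose and the median was 6.04, and without both control normals none was called and the median was -2.90. The alpha-defensin Defa4 was at -5.64 in control normal 1, -3.60 in control normal 2 and 5.20 in microRNA normal 1, and at 1.98 to 5.67 in the tumors. The tumors were thus above both control normals and overlapped microRNA normal 1. Alpha-defensin genes are near-identical copies, and probes for them can share signal. Mmp7 and Pla2g2a, which are also Wnt targets, rose by 5.25 (SE 0.74) and 3.81 (SE 0.40). Mptx1, a mucosal pentraxin, was at 8.02, 8.27 and 6.05 against 0.53 to 4.73, and fell by 5.15 (SE 0.98, adjusted p = 0.00483).

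Of 16 oxidative phosphorylation genes 15 fell and none rose, with a median of -0.95. Cox4i1, a subunit of cytochrome c oxidase, was at 8.20, 8.53 and 8.67 in the normals and at 6.17 to 7.35 in the tumors, and fell by 1.64 (SE 0.25, adjusted p = 0.002). The muscle isoform Cox7a1 fell by 3.16, the largest fall of the list. This list was sensitive to scaling and to slide: without scaling the median was 0.14, with 1 gene higher and 1 lower, and on slide 2 alone 2 of the 16 fell. Of 17 glycolysis and hypoxia genes 7 fell and 2 rose (2 and 1), beside 20.8% lower and 14.1% higher over all genes. Pfkl, a phosphofructokinase subunit, fell by 1.50 and Aldoa, an aldolase, by 0.92, and without scaling Aldoa differed by 0.17. Vegfa, the endothelial growth factor, rose by 0.83, but was not called without control normal 1 (0.77) or control normal 2 (0.81).

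Of 18 interferon-stimulated genes 4 fell and none rose, a share near the 20.8% over all genes, and none was called on slide 2 alone. Their median was -0.51, and without scaling it was 0.58, with 3 genes higher and 1 lower. Irf7, the transcription factor of the interferon response, was at 1.19, 2.41 and 2.75 in the normals and at -1.58 to 0.70 in the tumors, and fell by 2.47 (SE 0.49). Of 13 immediate early genes 4 rose and none fell (1 and none). Ier3 was at -0.44, -0.09 and 0.19 against 1.90 to 3.19, and rose by 2.80 (SE 0.30, adjusted p = 0.000456). Jun and Egr1 rose by 1.09 and 1.89, and neither was called on slide 2 alone or without control normal 1 or control normal 2. Fos differed by 0.37 and did not pass.

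Markers of the bowel wall and neighbouring tissues were lower in the tumors. Of 10 adipocyte markers 9 fell, with a median of -5.05. Cfd, the complement factor adipsin, was at 2.97 in control normal 1, 4.19 in control normal 2 and 4.80 in microRNA normal 1, and at -6.78 to -4.67 in the tumors, none of them well above background. It fell by at least 370-fold (fitted difference -9.43, SE 0.46, adjusted p = 1.39e-05). The summed signal of the adipocyte list, in units of the array's 75th percentile, was 52.9 to 87.6 in the normals and 2.09 to 12.6 in the tumors. Of 13 smooth muscle markers 12 fell, with a median of -2.51, which was -1.16 without both control normals. Actg2, the enteric smooth muscle actin, was at 7.98, 7.55 and 6.60 against 2.90 to 5.76, and fell by 2.91 (SE 0.63), but was not called on slide 2 alone (-2.76, adjusted p = 0.0532). The smooth muscle sum was 648 to 1543 in the normals and 67.4 to 387 in the tumors. On slide 2 alone 5 of the 13 smooth muscle markers and 9 of the 10 adipocyte markers fell.

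Of 11 skeletal muscle markers 9 fell, with a median of -3.20, and 3 fell on slide 2 alone. Of 21 squamous epithelium and skin markers 10 fell, with a median of -1.19, whereas on slide 2 alone none fell and 2 rose, with a median of -0.62. The summed signal was 5.32 to 27.5 in the normals and 3.29 to 6.79 in the tumors for skeletal muscle, and 17.0 to 69.4 against 15.5 to 24.8 for squamous epithelium. Both sums overlapped between the groups, because microRNA normal 1 was low in them. Without both control normals 1 marker of each list fell. Of 14 enteric neuron and glia markers 8 fell and none rose (5 and none).

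Of 14 fibroblast markers 5 rose and 1 fell (5 and none on slide 2 alone). Col1a1, the chain of fibrillar collagen I, was at 3.01, 3.39 and 2.60 in the normals and at 4.74 to 5.76 in the tumors, and rose by 2.30 (SE 0.29, adjusted p = 0.000874). Pdgfra and Pdgfrb, receptors of stromal cells, rose by 1.12 and 1.19, and Pdgfrb by 0.76 with the slide as a block. Of 13 endothelial markers 2 fell and 1 rose (1 and 1), shares below the 20.8% and 14.1% over all genes. Those that fell were Kdr and the lymphatic marker Lyve1, neither of them called on slide 2 alone, without control normal 1 or without control normal 2, and the 1 that rose was Prox1, which is also on the Wnt target list. The part of these tissues in the other differences was not tested.

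**Figure D4:**
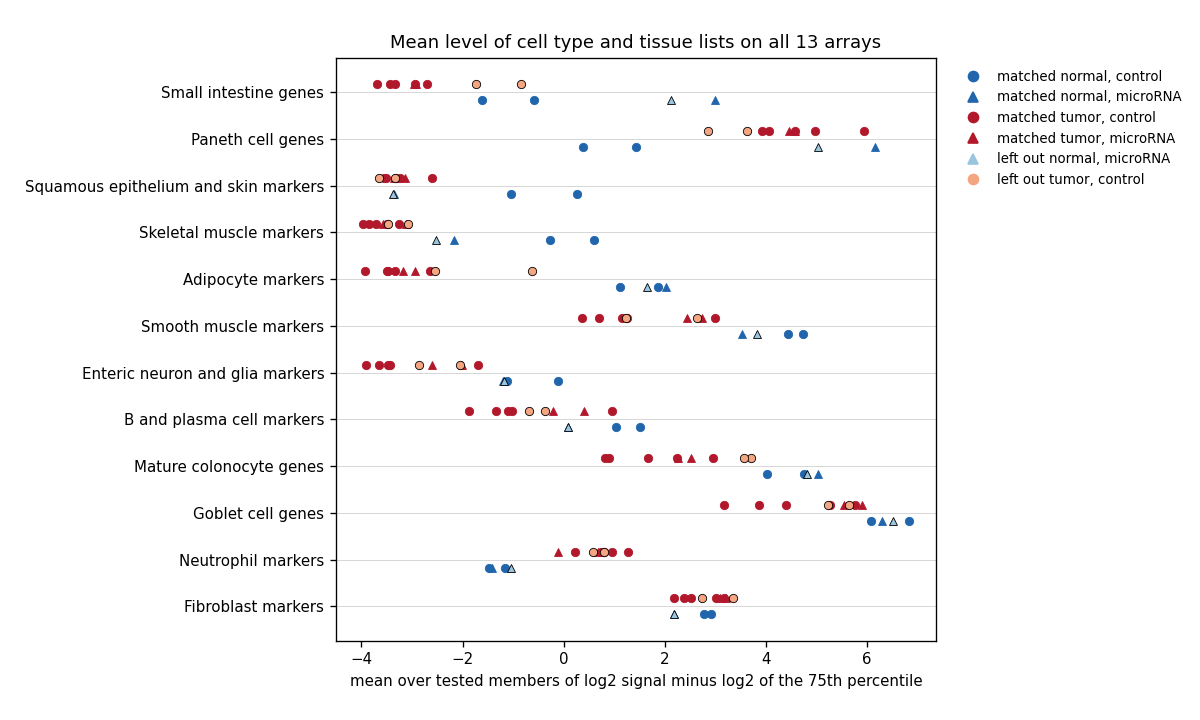
Mean level of cell type and tissue lists on all 13 arrays, as the mean over tested members of the log2 signal minus log2 of the 75th percentile, with a point per array. Over adipocyte markers the normals of the set are at 1.12 to 2.02 and the tumors at -3.93 to -2.64, while over Paneth cell genes the normals run from 0.39 to 6.16 around the tumors at 3.92 to 5.95.

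The largest changes over the whole array were sought among called genes that have an official symbol and whose groups did not overlap. The 12 largest rises were Mmp10, Wnt10a, Onecut2, Erich3, Otop2, Cxcl1, Lect2, Spp1, Cfi, Il11, Cxcl5 and Krt90, from 7.68 down to 5.83. Erich3 was at -5.87, -6.28 and -5.90 in the normals and at -0.97 to 2.03 in the tumors, and rose by at least 22.0-fold (fitted difference 6.49, SE 0.54, adjusted p = 0.000165). Otop2, a proton channel of the gut, was at -5.66 and -6.10 in control normals 1 and 2 and -0.64 in microRNA normal 1, against 0.96 to 2.75 in the tumors. Cfi, complement factor I, was at -5.71, -6.17 and 0.79 against 0.87 to 3.46. MicroRNA normal 1 thus came close to the tumors in Otop2 and Cfi, and neither gene, nor the secreted protein Lect2, was called on slide 2 alone.

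Among the 12 largest falls were Cfd, Slc51a, Ugt2b5, Cyp2c55, Prap1, Car3, Hkdc1, Cyp4b1, Tmigd1, Cyp2c65 and Btnl1, from -9.43 to -6.61. Several encode enzymes of drug and lipid metabolism: the glucuronosyltransferase Ugt2b5 was at 1.33 in control normal 1, 2.72 in control normal 2 and 1.89 in microRNA normal 1 and at -6.79 to -5.49 in the tumors. It fell by at least 92.0-fold (fitted difference -8.26, SE 0.36, adjusted p = 1.03e-05). The cytochrome P450 gene Cyp2c55 was at 5.78, 7.46 and 7.04 against -3.54 to 1.94, and fell by 8.19 (SE 1.05). Prap1, a secreted protein of gut epithelium, was at 1.73, 3.54 and 6.39 against -4.12 to -2.98. Btnl1, a butyrophilin-like protein that supports intraepithelial gamma delta T cells, was at 4.22, 5.71 and 6.31 against -3.68 to 1.47, and fell by 6.61 (SE 1.03). All 12 were also called on slide 2 alone.

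**Figure D5:**
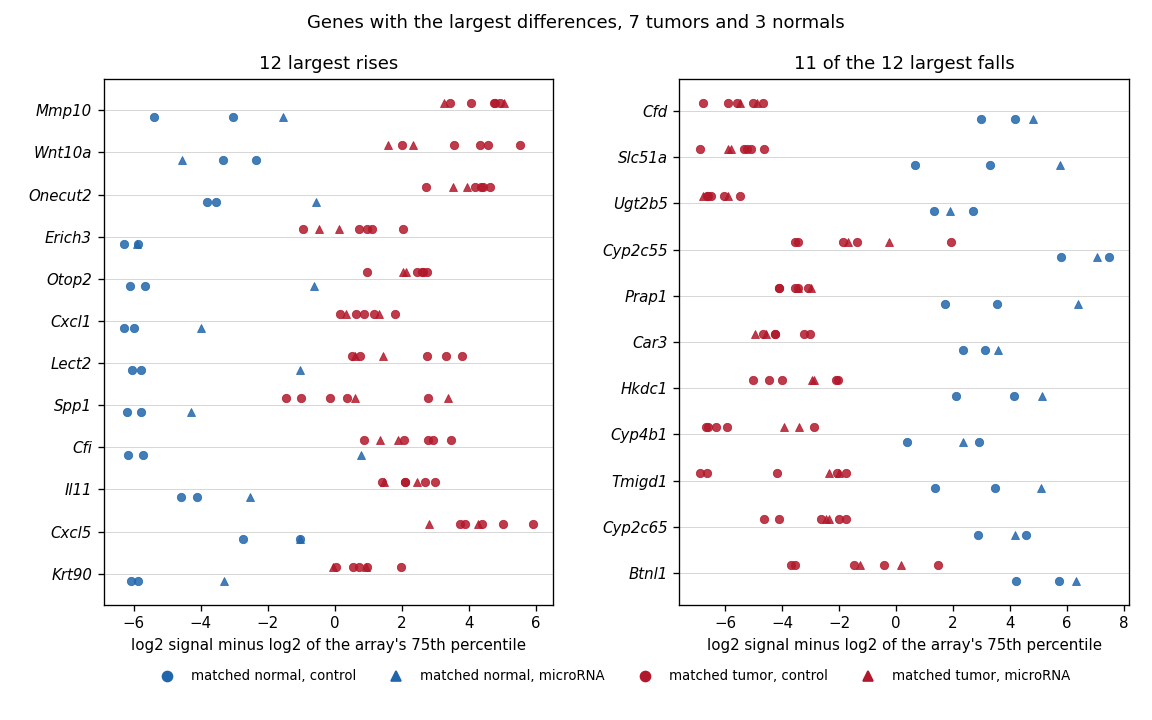
The 12 largest rises (left) and 11 of the 12 largest falls (right) among officially named, called genes without overlap, with the level (log2 signal minus log2 of the array's 75th percentile) on the x axis and a point per array. Mmp10 tumors are at 3.26 to 5.03 and normals at -5.40 to -1.55, and Cfd tumors at -6.78 to -4.67 and normals at 2.97 to 4.80.

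The same model fitted to all 13 arrays asks what changes when the arrays low in Hoxb13 enter. It called 2977 genes higher (11.7%) and 5034 lower (19.8%). Both fits share 10 arrays, so their values are given side by side only. The Wnt feedback inhibitors had a median of 2.66 in the matched set and 2.35 over 13 arrays, matrix proteases 2.78 and 2.83, and mature colonocyte genes -2.05 and -1.84. Among the 5 genes whose difference was lowered most in the matched set were Slc51a (-8.74 matched, -7.52 over 13 arrays), Cyp2c65 (-6.70, -5.48), Tmigd1 (-6.91, -5.70) and Cyp2c55 (-8.19, -7.00). In these genes the left-out tumors were near the normals rather than the matched tumors. Cyp2c65, for example, was at 4.40 in control tumor 1 and 4.09 in control tumor 5, against 2.86, 4.58 and 4.19 in the normals of the set and -4.65 to -1.76 in its tumors. Tmigd1, an adhesion protein of epithelium, was at 2.95 and 2.20 in the left-out tumors against -6.87 to -1.75 in the matched ones.

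The 5 genes whose difference was raised most were Gm10768 (3.91 matched, 2.58 over 13 arrays), Mt4 (5.15, 3.97), Sox11 (2.74, 1.65), Abcc2 (3.30, 2.21) and Otop1 (5.18, 4.14). Mt4, a metallothionein of stratified epithelium, was at -0.06 in control normal 1, -0.52 in control normal 2 and -1.94 in microRNA normal 1 and at 3.09 to 6.02 in the 7 tumors. It was at -2.26 and -2.65 in the left-out tumors, so it was high in the matched tumors and not in those low in Hoxb13. Otop1, a proton channel related to Otop2, was at -3.48, -5.18 and -3.27 in the normals, -0.05 to 2.49 in the matched tumors and -3.99 and -4.30 in the left-out tumors. The transcription factor Sox11, Gm10768 and the transporter Abcc2 were not called on slide 2 alone or without control normal 1 or control normal 2. The probes of Gm10768 and Abcc2 lie close together on chromosome 19 (starts 43915094 and 43912079 on mm9). In both genes microRNA normal 1, at -1.40 and -0.95, lay within the range of the matched tumors. Cdx2 had a difference of -3.81 in the matched set and -3.12 over 13 arrays. The left-out arrays were selected by Hoxb13, and these values describe 2 tumors and 1 normal.

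Whether the difference between tumor and normal tissue itself differed between microRNA and control mice was tested as an interaction of the 4 group means. It was called for 52 genes (0.204%), 42 of them with a lower tumor effect in microRNA mice and 10 with a higher one. The microRNA side rests on microRNA normal 1 alone, whose spread was taken from the other arrays. Many of the genes called had symbols of alpha-defensins, whose near-identical copies can share signal, so they may not be separate measurements. Defa4 differed by 8.41 in control mice and by -2.94 in microRNA mice (difference -11.35, adjusted p = 0.0381). Apoa1, an apolipoprotein of the small intestine, differed by -1.40 in control mice and by -10.84 in microRNA mice (difference -9.43, adjusted p = 1.22e-05). It was at -5.02 and -5.01 in control normals 1 and 2, 4.41 in microRNA normal 1 and -6.53 to -6.31 in the tumors. MicroRNA normal 2, left out of the set, was at 2.58 in Apoa1 and at 3.74 in Defa4. In the other direction Krt5 differed by -5.29 in control mice and -0.01 in microRNA mice (difference 5.28, adjusted p = 0.011). These are genes in which the normals differed from each other, as given above, and the count was 8 without microRNA tumor 2, 12 without microRNA tumor 1, 23 without control normal 1, 81 without control normal 2 or control tumor 2, and 15 to 19 without control tumor 4, 6 or 7. The part of the microRNAs in it was not tested.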

How the data were processed

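Per the labels, 35 ng of total RNA of each sample was labelled with Cy3. The authors read the arrays, per the file headers, with Feature Extraction 10.7.3.1 against a design on mm9, and the deposited values are spot intensity on a linear scale, not scaled between arrays. The values in the series-wide table were identical (largest relative difference 0). Control spots (3671) and outlier spots were left out, spots of a probe averaged, and log2 intensity reduced by the log2 of the array's 75th percentile. Probes well above background on at least 2 of 13 arrays were kept (35181 of 55681), with the brightest probe per gene (25463 genes, 16650 with an official symbol). Symbols came through RefSeq accessions or names. The mean and background intensity that the authors deposited served for normexp (offset 50). No depth exists for arrays, and their number limits the precision.

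Tumors and normals were compared with limma 3.58.1 (lmFit, eBayes) in R 4.3.3 with data.table (1.17.8), in a model of tissue and treatment, and genes with an adjusted p-value (Benjamini-Hochberg) under 0.05 were called. Differences are log2, tumor minus normal, with the model's standard error. Where no array of the lower group was well above background, the fold is a lower limit (at least). The procedure was tested on simulated data, drawn independently for each array with the tumors' spread in both tissues. That test does not cover genes in which the normals spread more than the tumors, or arrays that share a slide or file number. Named genes were the 12 largest rises and falls without overlap, up to 4 members per list with the smallest p, a fixed set of position, Wnt and proliferation genes, and the 5 genes moved most each way against the 13-array fit; further list members are given as values. The members of the set and the lists were chosen with earlier results of these data known. Alternatives covered scaling, filters, probes, slide, file numbers, replicate block and single arrays; those leaving out both control normals or the arrays with Xist signal were added after seeing the data. Some of the genes that these rules name are not reported here.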

Additional observations from a re-analysis of the deposited data

Results flagged for a closer look

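Among the 5 control tumors, 77 values were searched for an array separated from the rest by more than 0.71 of the group's range, which chance gives in about 1 of 20 groups. Control tumor 2 stood apart in Cyp4b1 (-2.88, others -6.69 to -5.93), Onecut2 (2.71, others 4.17 to 4.63) and Otop2 (0.96, others 2.45 to 2.75). It also stood apart in the mean level of Wnt targets (2.12, others 3.05 to 3.29), immediate early genes (1.81, others 0.58 to 0.93) and neuron and glia markers (-1.69, others -3.91 to -3.44). Control tumor 4 stood apart in Hoxd13 (-6.04, others 1.63 to 3.33). Control tumor 3 stood apart in Xist (2.18, others -6.63 to -5.59) and in the mean of macrophage and dendritic cell markers (2.46, others 1.65 to 1.84).

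The tumor effect of microRNA mice minus that of control mice passed limma's interaction test for 8 of the named genes: Apoa1 (-9.43), Cfi (-7.54), Defa4 (-11.35), Olfm4 (-5.36), Otop2 (-5.44), Krt5 (5.28), Krt71 (5.58) and Myh1 (3.00). The microRNA side of each has 1 normal array.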

How the results depend on the processing

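The count of called genes (8893, with 3588 higher and 5305 lower) ran from 4257 to 10107 when single arrays were left out, with 1734 to 4075 higher and 2523 to 6032 lower. It was 680 with the replicate block (301 higher, 379 lower), 347 without both control normals (107 higher, 240 lower), 5445 without the arrays with Xist signal (2199 higher, 3246 lower), 4948 on slide 2 alone (2550 lower) and 5660 on control arrays alone (3213 lower). It was 5738 with a 2-fold threshold (2309 higher, 3429 lower), 13610 without a filter on dim probes (9937 lower) and 15681 without scaling (14890 higher, 791 lower), and normexp correction gave 9709 lower genes. Whether replicate numbers pair the samples is not settled. Correlations of deviations between same-numbered normal and tumor arrays were 0.42 for both microRNA numbers, and -0.14 and -0.10 for the control numbers. With 2 arrays the 2 microRNA values are equal by construction, but their size is not fixed. Same-numbered microRNA arrays share a file number, and same-numbered control arrays do not. In the replicate block only microRNA replicate 1 and control replicate 2 hold both tissues, so the other arrays do not inform its tissue effect. Likewise, without both control normals the control tumors do not inform the tissue effect. Without microRNA normal 1 the microRNA tumors do not inform the size of that effect. The interaction, called for 52 genes, was called for 8 to 81 without single arrays, 27 with the filter on the 10 arrays, 31 with a filter by group and 85 with the slide as a random block. It could not be fitted without microRNA normal 1.

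Signs turned without both control normals for Abcc2 (-0.0306), Gm10768 (-0.0426) and the medians of B and plasma cell (0.0114), endothelial (0.50), tuft (0.21) and Paneth (-2.90) genes. Without scaling they turned for Aldoa (0.17), Atp5a1 (0.19), Rgmb (0.24), Wnt9a (0.0632) and the medians of endothelial (0.84), glycolysis (0.69), oxidative phosphorylation (0.14), prostaglandin (0.61), T and NK (0.0055), tuft (0.72), interferon-stimulated (0.58) and posterior Hox (0.54) genes. After normexp they turned for Wnt16 (-0.0926) and Wnt ligands (-0.40), and with all probes averaged for Msi1 (0.0214). The endothelial median also turned with the slide as a block (0.0667), on slide 2 alone (0.12) and with the replicate block (0.26). Of 197 called genes that were named or led a list, 62 were not called on slide 2 alone, 31 with the slide as a block, 112 with the replicate block and 159 without both control normals. The causes were not tested. After normexp the medians of several lists with dim genes were smaller in size: inflammatory 0.54, neutrophil 0.39, mast cell 0.27, immediate early 0.33, adipocyte -3.01, neuron and glia -1.17, skeletal muscle -1.67 and small intestine -2.64. Genes near background have only a bound in the lower group.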
